A study of Homo sapiens and Mus musculus with 24 samples.

Results

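PKIB and the genes of protein kinase A (PKA) were followed through 4 human intestinal epithelial cell lines and through mouse colonic epithelium, each with or without the DNA methyltransferase DNMT3A. The members were taken by symbol: the inhibitor genes PKIB, PKIA and PKIG, the catalytic subunit genes PRKACA and PRKACB, and the regulatory subunit genes PRKAR1A, PRKAR1B, PRKAR2A and PRKAR2B. All 9 were found among the 58051 genes counted in the human libraries, and their 9 orthologs among the 29307 genes counted in the mouse libraries. PKIB was selected on its measured RNA levels in these human lines, so its values there are given as a description with no test.

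The human samples were Caco-2 cells, a colorectal adenocarcinoma line used as a model of intestinal epithelium. They comprised unedited cells (WT, n = 4), cells whose DNMT3A gene was cut with CRISPR-Cas9 (ΔDNMT3A, n = 4), and ΔDNMT3A cells carrying a TY1-tagged piggyBac copy of the long isoform (DNMT3A1, n = 3) or of the short isoform (DNMT3A2, n = 4). The ΔDNMT3A line was grown from single cells by serial dilution and the isoform lines were expanded as clones under puromycin, so in these cells a difference between genotypes cannot be told apart from a difference between clones. The mouse samples were colonic epithelial cells of unchallenged 12 week old animals of both sexes with floxed Dnmt3a exons, either without Cre (Dnmt3a fl/fl, n = 4) or with Cre driven by the villin promoter, which is active in intestinal epithelium (Dnmt3a ΔIEC, n = 4). No source used here says that the Caco-2 replicates were separate cultures, so p-values among them measure the spread between these libraries only.

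PKA is a tetramer in which a pair of regulatory subunits holds a pair of catalytic subunits inactive until cyclic AMP (cAMP) binds the regulatory subunits and frees the catalytic ones. Type I enzyme holds the regulatory subunits RIα or RIβ (PRKAR1A, PRKAR1B) and type II enzyme RIIα or RIIβ (PRKAR2A, PRKAR2B), the latter usually tethered by A-kinase anchoring proteins. The protein kinase inhibitors encoded by PKIA, PKIB and PKIG bind free catalytic subunits as pseudosubstrates and carry them out of the nucleus. In intestinal epithelium, cAMP and PKA are known for opening the CFTR chloride channel and for switching on genes through the factor CREB.

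DNMT3A itself, the targeted gene, averaged 64.6 ± 2.27 CPM (counts of the gene scaled to the library's size, mean ± SD) in WT cells and 20.7 ± 1.22 in ΔDNMT3A cells, with 38.02 ± 1.23 for DNMT3A1 and 21.9 ± 1.40 for DNMT3A2. Single WT libraries ranged from 62.0 to 67.2 CPM of DNMT3A, ΔDNMT3A libraries from 19.3 to 22.3, DNMT3A1 libraries from 36.7 to 39.1 and DNMT3A2 libraries from 20.2 to 23.5. The DNMT3A2 libraries therefore overlapped those of ΔDNMT3A (log2 fold change 0.07, adjusted p = 0.272, edgeR quasi-likelihood with Benjamini-Hochberg adjustment), and the count of the whole gene did not check that label. The study checked the isoform proteins by immunoblot, which is not part of these data. This count also does not tell the isoforms or a tagged copy apart. Dnmt3a fell from 93.9 ± 7.70 CPM in fl/fl mice, with libraries from 84.7 to 102, to 46.1 ± 3.30 in ΔIEC mice, with libraries from 41.7 to 49.6 (adjusted p = 0.000763). Libraries held 22104408 to 42161299 counts in Caco-2 cells and 16943626 to 24921248 in mice. Epithelial markers, 10 genes including KRT8 and EPCAM, summed to 8567 to 12895 CPM in the Caco-2 libraries, with KRT8 the highest of them in every line. A mean over 1 CPM was reached by 9 of these genes among WT libraries, by 7 for DNMT3A2 and by 8 for either remaining line. CDX1 from this list was at 0 in every ΔDNMT3A library, while no gene of the list was at 0 throughout another line. The leukocyte marker MS4A1 had 0 counts in all Caco-2 libraries. Of the other marker lists, the leukocyte sum ran from 5.77 to 6.38 CPM in WT and from 19.2 to 22.1 CPM in ΔDNMT3A, mostly CSF1R, the stromal sum from 169.0 to 219.1 CPM, mostly PDGFRA, and the neural and muscle sum from 60.2 CPM in ΔDNMT3A to 304.8 CPM in DNMT3A2, mostly UCHL1, and their part in the members' values was not tested. Between Caco-2 lines most genes differed: 60.7% to 68.7% of the genes tested passed an adjusted p under 0.05, and every count of members in these cells has to be read against that.

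PKIB lies on chromosome 6 and carries 3 annotated start sites in RefSeq, and PRKACB lies on chromosome 1 and carries 5. DNMT3A methylates cytosine in CpG, so the 250 bases before these starts are shown with each CpG in capitals, for all 3 starts of PKIB and for the first 2 of PRKACB, the pair of members whose levels differed most between the lines (GRCh38.p14, plus strand, RefSeq). The windows are chr6:122471671-122471920, chr6:122610155-122610404 and chr6:122652479-122652728 for PKIB, and chr1:84077829-84078078 and chr1:84144021-84144270 for PRKACB.
PKIB start 1: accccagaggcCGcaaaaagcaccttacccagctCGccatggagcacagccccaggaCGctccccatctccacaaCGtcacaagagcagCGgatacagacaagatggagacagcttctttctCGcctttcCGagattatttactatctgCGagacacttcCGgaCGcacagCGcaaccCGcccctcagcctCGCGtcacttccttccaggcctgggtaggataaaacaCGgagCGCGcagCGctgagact
PKIB start 2: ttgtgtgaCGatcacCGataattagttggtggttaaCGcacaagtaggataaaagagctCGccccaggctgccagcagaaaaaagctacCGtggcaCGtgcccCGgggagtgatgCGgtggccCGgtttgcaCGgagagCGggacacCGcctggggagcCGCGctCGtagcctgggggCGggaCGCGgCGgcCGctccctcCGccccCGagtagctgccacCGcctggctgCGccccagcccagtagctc
PKIB start 3: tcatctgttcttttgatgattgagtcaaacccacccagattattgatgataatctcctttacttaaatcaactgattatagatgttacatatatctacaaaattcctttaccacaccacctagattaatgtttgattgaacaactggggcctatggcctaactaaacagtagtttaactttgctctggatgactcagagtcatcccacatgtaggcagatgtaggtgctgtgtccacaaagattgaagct
PRKACB start 1: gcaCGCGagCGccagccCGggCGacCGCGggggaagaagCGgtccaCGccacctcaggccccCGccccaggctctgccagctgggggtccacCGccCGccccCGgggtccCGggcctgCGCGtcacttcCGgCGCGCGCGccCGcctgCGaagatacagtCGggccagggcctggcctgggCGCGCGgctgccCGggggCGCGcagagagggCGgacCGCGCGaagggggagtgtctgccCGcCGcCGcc
PRKACB start 2: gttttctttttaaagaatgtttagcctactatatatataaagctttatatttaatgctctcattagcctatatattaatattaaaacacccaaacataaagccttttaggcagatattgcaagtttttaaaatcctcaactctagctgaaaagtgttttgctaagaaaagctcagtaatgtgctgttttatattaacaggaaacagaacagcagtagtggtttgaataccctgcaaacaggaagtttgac

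The first and second PKIB windows hold 18 and 24 CpG and the third holds 0. The windows of the 5 PRKACB starts, of which the first 2 are shown, hold 37, 0, 3, 5 and 0. Over all 35116 human windows of this length the median was 11, and 6.06% held 0. Both genes thus join a start above that median to a start with no CpG in the window, and in PRKACB only the first start lies above it. Windows were found for 8 of the 9 members, with 25 starts in all. The cAMP response element bound by CREB, TGACGTCA, was present in 1 of the 25, a start of PRKAR1A, against 1.65% of all windows, and its shorter core TGACG, on either strand and including full elements, in 7 of the 25, against 21.2%. The counts are per gene and do not say which start was used.

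PKIB, the inhibitor that is the most variable member, was nearly silent in WT and in DNMT3A2 and clearly expressed in ΔDNMT3A and in DNMT3A1. In WT libraries 1 to 4 it had 0.84, 0.47, 0.93 and 0.72 CPM, from 28, 13, 29 and 28 counts. In the ΔDNMT3A libraries it had 27.2, 29.3, 28.1 and 29.3 CPM, from 832 to 1140 counts. All ΔDNMT3A libraries thus lay far above all WT libraries. The DNMT3A1 libraries (replicates 1, 2 and 4) had 32.8, 33.1 and 37.8 CPM of PKIB, from 865 to 1340 counts, and the DNMT3A2 libraries had 0.43, 0.46, 0.57 and 0.58 CPM, from 10 to 18 counts. DNMT3A1 libraries were all above those of ΔDNMT3A, and DNMT3A2 libraries all far below them and overlapping WT.

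As fitted log2 fold changes, PKIB was 5.24 (SE 0.0994) higher in ΔDNMT3A than in WT and 0.28 (SE 0.0551) higher in DNMT3A1 than in ΔDNMT3A. From ΔDNMT3A to DNMT3A2 it fell by 5.77 on the log2 scale (SE 0.0989). DNMT3A2 against WT gave -0.54 (SE 0.263). For scale, 0.156% of the genes tested had a larger absolute change than PKIB between ΔDNMT3A and WT and 0.104% between DNMT3A2 and ΔDNMT3A, while 48.2% had a larger one between DNMT3A1 and ΔDNMT3A. Within lane 5 the difference of log2 levels between ΔDNMT3A and WT was 5.28 and within lane 6 it was 4.97, and between DNMT3A2 and ΔDNMT3A it was -5.69 and -5.42. A gene without a symbol, ENSG00000279114, shares 454 exon bases with PKIB on the same strand, 13.2% of its exon length, and had 2 to 19 counts per library.

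**Figure D1:**
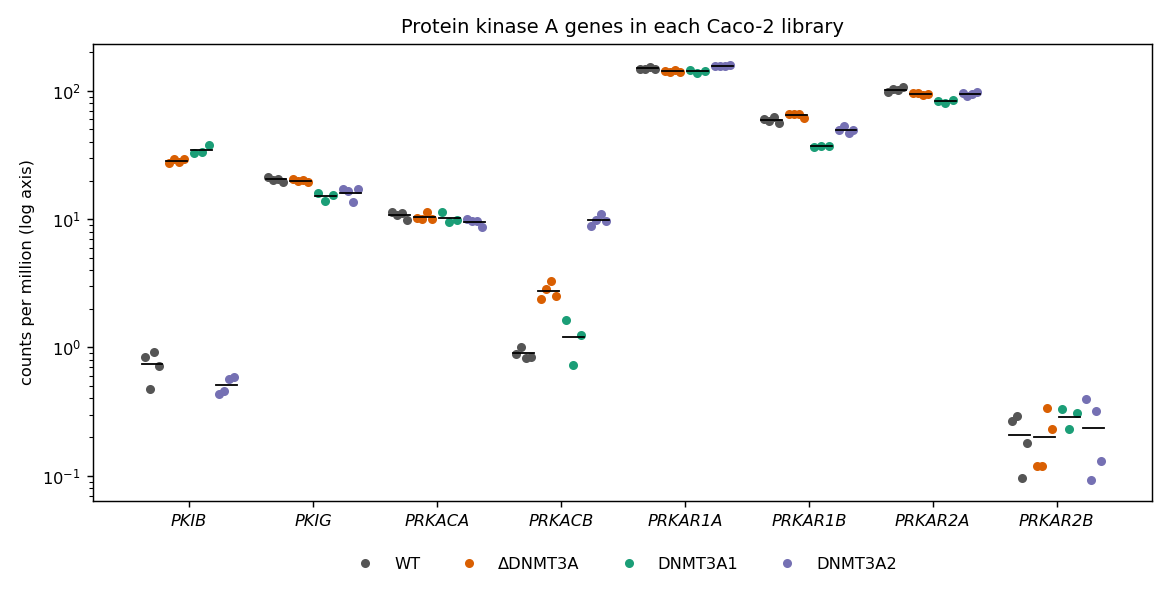
CPM (log axis) of 8 members in each of the 15 Caco-2 libraries, coloured by line. Points are libraries and black bars are means. PKIB runs from 0.43 to 37.8 CPM and PRKACB from 0.73 to 11.0, while the other expressed members keep narrow ranges. PKIA, with 0 counts in 14 of the libraries, is not drawn.

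PKIG, the most widely expressed inhibitor of the family, was present at like levels in WT and ΔDNMT3A and lower in both isoform lines. PKIG had 21.4, 20.1, 20.7 and 19.3 CPM in WT and 20.5, 19.7, 20.0 and 19.6 CPM in ΔDNMT3A, ranges that overlap. It had 16.1, 13.7 and 15.4 CPM in DNMT3A1 and 17.2, 16.5, 13.6 and 17.0 CPM in DNMT3A2, all below every WT and ΔDNMT3A library. The log2 fold change of PKIG against ΔDNMT3A was -0.40 (SE 0.0574, adjusted p = 4.57e-06) in DNMT3A1 and -0.32 (SE 0.0645, adjusted p = 0.000135) in DNMT3A2. The isoform lines did not differ in PKIG beyond the threshold (-0.09, SE 0.0764, adjusted p = 0.32), nor did ΔDNMT3A and WT (-0.04, SE 0.0505, adjusted p = 0.519). PKIA, the third inhibitor gene, had 0 counts in 14 of 15 Caco-2 libraries and 1 count in ΔDNMT3A replicate 3. A count of 0 allows a level of up to 0.0712 to 0.136 CPM for PKIA, depending on the library and for counting error only.

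PRKACB, which encodes the β catalytic subunit, was the member other than PKIB with the largest differences, and the isoform lines departed from ΔDNMT3A in opposite directions. It had 0.90, 1.02, 0.83 and 0.85 CPM in WT, from 26 to 33 counts. In ΔDNMT3A it had 2.39, 2.87, 3.28 and 2.53 CPM, from 76 to 100 counts. Every ΔDNMT3A library was above every WT library, and the log2 fold change was 1.61 (SE 0.154, adjusted p = 2.56e-09). The DNMT3A1 libraries had 1.64, 0.73 and 1.24 CPM of PRKACB, from 50, 19 and 44 counts, all below ΔDNMT3A and overlapping WT. The DNMT3A2 libraries had 8.89, 9.87, 11.0 and 9.66 CPM, from 214 to 312 counts, all above every other Caco-2 library.

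Against ΔDNMT3A, PRKACB changed by -1.17 (SE 0.203, adjusted p = 5.07e-05) in DNMT3A1 and by 1.84 (SE 0.0988, adjusted p = 6.89e-14) in DNMT3A2. The direct comparison of DNMT3A1 with DNMT3A2 gave -3.004 (SE 0.146, adjusted p = 1.17e-15), and 1.11% of tested genes differed by more. Against WT, PRKACB was 10.9-fold higher in DNMT3A2 (log2 3.45, SE 0.117, adjusted p = 2.48e-21). DNMT3A1 against WT gave 0.45 (SE 0.238, adjusted p = 0.102), and without DNMT3A1 replicate 2, the library with 19 counts, 0.68 (adjusted p = 0.0116), while without DNMT3A1 replicate 1 it gave 0.18 (adjusted p = 0.591). Within lanes 5 and 6 the difference of log2 levels was 1.37 and 1.67 for ΔDNMT3A minus WT, -1.18 and -1.15 for DNMT3A1 minus ΔDNMT3A, and 1.80 and 1.81 for DNMT3A2 minus ΔDNMT3A. In bulk RNA from a line, fewer expressing cells and less RNA per cell cannot be told apart.

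PRKACA, the α catalytic subunit gene, stayed near 10 CPM in all lines. Means of PRKACA were 10.8 ± 0.677 CPM for WT, 10.4 ± 0.591 for ΔDNMT3A, 10.2 ± 0.938 for DNMT3A1 and 9.48 ± 0.605 for DNMT3A2. Of the 6 comparisons between lines, 1 passed for PRKACA, DNMT3A2 against WT (-0.20, SE 0.0699, adjusted p = 0.0124), and it did not pass without DNMT3A2 replicate 4 (-0.15, adjusted p = 0.0686).

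Among the regulatory subunits, PRKAR1B (RIβ), best known from brain, differed most. PRKAR1B had 60.5, 58.4, 62.9 and 56.3 CPM in WT and 66.5, 65.9, 65.8 and 61.5 CPM in ΔDNMT3A, overlapping ranges. It had 36.8, 36.9 and 37.2 CPM in DNMT3A1 and 49.3, 52.8, 47.0 and 49.2 CPM in DNMT3A2. Both isoform lines lay below every WT and ΔDNMT3A library, with DNMT3A1 below DNMT3A2. PRKAR1B fell by 0.81 on the log2 scale from ΔDNMT3A to DNMT3A1 (SE 0.0438, adjusted p = 3.99e-12) and fell by 0.40 to DNMT3A2 (SE 0.0368, adjusted p = 1.43e-09). The isoform lines differed by -0.42 (SE 0.0437, adjusted p = 4.25e-09). ΔDNMT3A against WT gave 0.12 (SE 0.0371, adjusted p = 0.00925), and 0.09 (adjusted p = 0.0582) without WT replicate 4.

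PRKAR1A and PRKAR2A, the RIα and RIIα genes, were the most abundant members and moved little. PRKAR1A averaged 149.5 ± 2.09 CPM in WT and 142.5 ± 2.10 in ΔDNMT3A, against 142.2 ± 5.15 in DNMT3A1 and 157.3 ± 1.64 in DNMT3A2. The highest PRKAR1A levels were those of DNMT3A2, where all 4 libraries were above all others, and its log2 fold change there against ΔDNMT3A was 0.14 (SE 0.0236, adjusted p = 1.79e-05). PRKAR2A averaged 102.4 ± 3.24 CPM for WT, 94.97 ± 1.59 for ΔDNMT3A, 83.1 ± 2.18 for DNMT3A1 and 95.01 ± 2.37 for DNMT3A2. PRKAR2A was lower than in WT in each edited line, with log2 fold changes of -0.12 in ΔDNMT3A (adjusted p = 0.00139), -0.30 in DNMT3A1 (adjusted p = 3.15e-08) and -0.12 in DNMT3A2 (adjusted p = 0.000277). PRKAR2B, the RIIβ gene, had 2 to 11 counts per Caco-2 library and was below the filter, with its means between 0.20 and 0.29 CPM and overlapping in all comparisons.

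**Figure D2:**
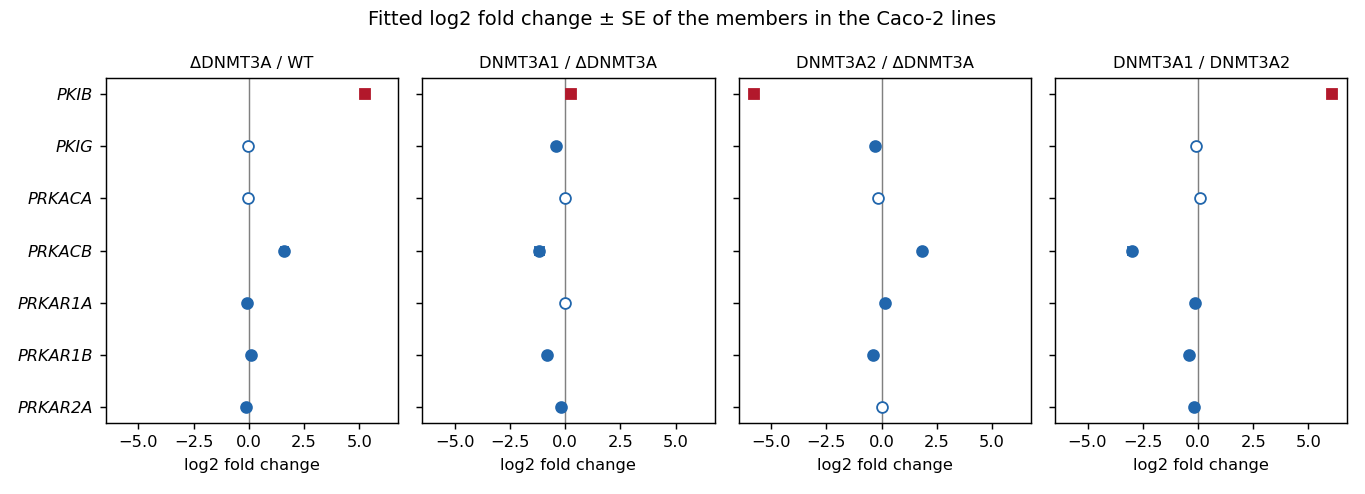
Fitted log2 fold change (x axis) with its SE of the 7 members with enough counts, in 4 comparisons of Caco-2 lines. Filled blue circles passed an adjusted p under 0.05 and open circles did not. Red squares are PKIB, given with no test, and SE bars are mostly smaller than the symbols. PRKACB lies at 1.61, -1.17, 1.84 and -3.004 from left to right, and the remaining blue points lie between -0.81 and 0.14.

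Counted over the members other than PKIB, 6 of 8 passed the filter on low counts, and the tested members passed the threshold about as often as genes in general. Between ΔDNMT3A and WT, PRKACB and PRKAR1B were higher, PRKAR1A and PRKAR2A lower, and 2 did not pass. Of all genes tested there, 62.2% passed, 31.2% higher and 31.0% lower. Between DNMT3A1 and ΔDNMT3A 4 members were lower and 2 did not pass, beside 60.7% of all genes (30.4% higher and 30.3% lower). DNMT3A2 against ΔDNMT3A had 2 higher, 2 lower and 2 that did not pass, beside 67.9% (33.8% higher and 34.1% lower). Against WT, DNMT3A1 had 4 lower and 2 that did not pass, beside 65.3% (32.6% higher and 32.7% lower), and DNMT3A2 had 2 higher and 4 lower, beside 68.7% (34.3% higher and 34.4% lower). DNMT3A1 against DNMT3A2 had 4 lower and 2 that did not pass, beside 68.5% (34.5% higher and 33.9% lower). Libraries of the groups did not overlap for 3 of the 6 members between ΔDNMT3A and WT, where 55.4% of all genes did not overlap, for 4 between DNMT3A1 and ΔDNMT3A (59.8%), for 5 between DNMT3A2 and ΔDNMT3A (61.4%), for 4 and 5 between DNMT3A1 or DNMT3A2 and WT (63.4% and 62.2%) and for 4 between the isoform lines (66.6%). The counts against ΔDNMT3A share that line's libraries and those against WT share the WT libraries. The median absolute log2 change of all genes tested was 0.24 between ΔDNMT3A and WT, 0.27 between DNMT3A1 and ΔDNMT3A and 0.29 between DNMT3A2 and ΔDNMT3A, and in these 3 comparisons the changes of PRKAR1A and PRKAR2A were smaller than that median and those of PRKACB larger.

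Divided by exon length, levels can be roughly compared between genes, and they describe how the make-up of the PKA transcripts differed between lines. The length covers all annotated exons of a gene and not the transcript in use. It was 6.144 kilobases for PRKACA and 2.488 for mouse Prkaca. Levels, shares and ratios that set genes beside each other depend on this length. In CPM per kilobase, the sum of PRKACA and PRKACB was 1.89 ± 0.112 in WT and 2.11 ± 0.147 in ΔDNMT3A, against 1.84 ± 0.216 in DNMT3A1 and 3.01 ± 0.156 in DNMT3A2. The PRKACB share of that sum was 7.08% ± 0.680 for WT, 19.5% ± 1.66 for ΔDNMT3A, 9.54% ± 2.71 for DNMT3A1 and 48.7% ± 2.92 for DNMT3A2. In DNMT3A2, PRKACB at 1.47 ± 0.133 CPM per kilobase was thus close to PRKACA at 1.54 ± 0.0985. Shares of WT and DNMT3A1 overlapped between libraries (6.39% to 7.92% and 6.51% to 11.7%), and those of the other lines stood apart.

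Among the inhibitors, PKIB made up 2.56% ± 0.625 of the per-length inhibitor sum in WT and 50.9% ± 1.38 in ΔDNMT3A, against 62.5% ± 2.42 in DNMT3A1 and 2.29% ± 0.510 in DNMT3A2, a share that follows from the level PKIB was picked for. In ΔDNMT3A, PKIB at 8.31 ± 0.297 CPM per kilobase was close to PKIG at 7.995 ± 0.154. The ratio of the inhibitor sum to the catalytic sum was 4.45 ± 0.129 in WT and 7.77 ± 0.533 in ΔDNMT3A, against 8.83 ± 1.02 in DNMT3A1 and 2.20 ± 0.322 in DNMT3A2. These are ratios of transcripts, and protein amounts and kinase activity were not measured here. Of the regulatory sum, type I genes made up 69.5%, 71.1%, 69.8% and 70.4% in WT, ΔDNMT3A, DNMT3A1 and DNMT3A2. Within type I, the PRKAR1B share was 37.7% ± 0.922, 40.9% ± 0.783, 28.3% ± 0.759 and 32.4% ± 1.10 in the same order. The regulatory to catalytic ratio was 26.9 ± 1.68, 23.7 ± 1.45, 22.8 ± 2.12 and 16.1 ± 0.994. The catalytic sum in all these ratios is PRKACA plus PRKACB and leaves out PRKX, a gene from the list of other catalytic subunits. PRKX averaged 62.1 CPM in WT and 60.6 in ΔDNMT3A, against 38.1 in DNMT3A1 and 44.04 in DNMT3A2. The ratios therefore do not describe all catalytic transcripts, and their values with PRKX included were not tested.

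**Figure D3:**
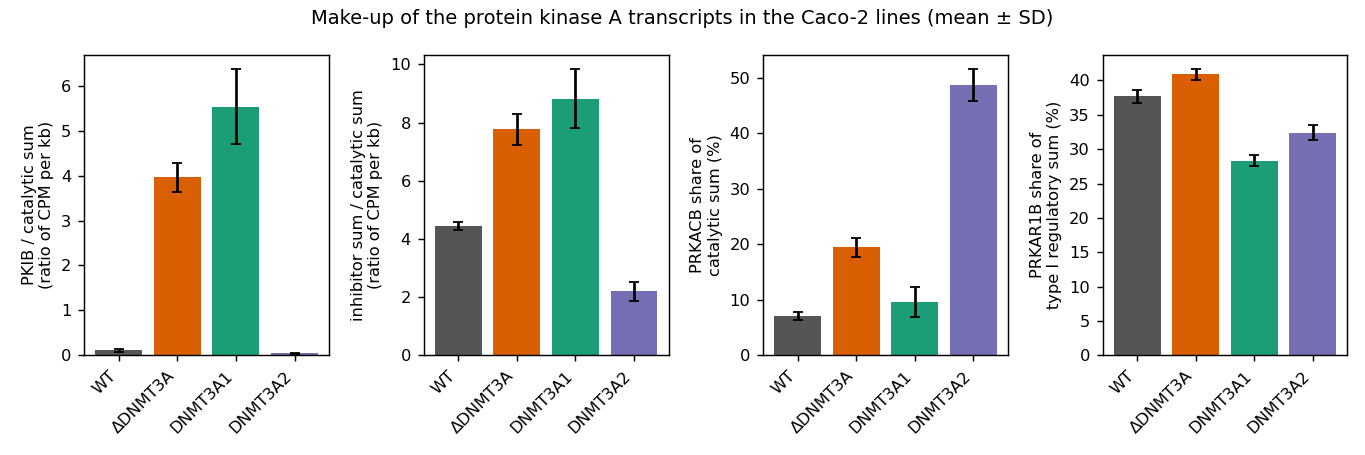
Make-up of the PKA transcripts in the Caco-2 lines, from CPM per kilobase of exon. The catalytic sum is PRKACA plus PRKACB, without PRKX. Bars are means and error bars SD over libraries (n = 4, and n = 3 for DNMT3A1), and all axes start at 0. The PKIB to catalytic ratio averages 0.114 for WT, 3.96 for ΔDNMT3A, 5.53 for DNMT3A1 and 0.0496 for DNMT3A2, while the PRKACB share of the catalytic sum is highest in DNMT3A2 at 48.7%.

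Changes around PKIB were small beside its own between ΔDNMT3A and WT and between DNMT3A2 and ΔDNMT3A. Between DNMT3A1 and ΔDNMT3A, where PKIB changed by 0.28, several nearby genes changed by more. Among the 50 nearest tested genes, 25 on each side, the median log2 fold change was 0.06 between ΔDNMT3A and WT, 0.24 between DNMT3A1 and ΔDNMT3A and 0.11 between DNMT3A2 and ΔDNMT3A. HSF2, a heat shock factor whose start lies before that of PKIB (-72.4 kilobases), gave -0.07 (adjusted p = 0.156) between ΔDNMT3A and WT. SERINC1, which starts at -28.6 kilobases on the other strand, fell by 0.09 (adjusted p = 0.00391). ENSG00000279453, without a symbol and at -35.1 kilobases, fell by 0.62 there (adjusted p = 5.02e-05). Against ΔDNMT3A it rose by 0.32 in DNMT3A1 (adjusted p = 0.0461) and 0.58 in DNMT3A2 (adjusted p = 0.000768). TBC1D32, at -1392 kilobases, gave 0.18 between ΔDNMT3A and WT (adjusted p = 0.281). Against ΔDNMT3A it gave -0.55 in DNMT3A1 (adjusted p = 0.0422) and -0.17 in DNMT3A2 (adjusted p = 0.346). SMPDL3A, an acid phosphodiesterase gene and the next tested gene with a symbol after PKIB, had the signs of PKIB in these 3 comparisons. SMPDL3A rose by 0.57 (adjusted p = 8.98e-08) in ΔDNMT3A against WT, by 0.63 (adjusted p = 1.45e-08) in DNMT3A1 against ΔDNMT3A, and changed by -0.49 (adjusted p = 2.8e-07) in DNMT3A2 against ΔDNMT3A. SMPDL3A levels averaged 9.41 CPM in WT and 14.1 in ΔDNMT3A, against 21.7 in DNMT3A1 and 9.98 in DNMT3A2.

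Further away, the gap junction gene GJA1 gave 0.04 (adjusted p = 0.582) between ΔDNMT3A and WT and was higher in both isoform lines than in ΔDNMT3A, by 1.85 in DNMT3A1 (adjusted p = 4.85e-16) and 1.92 in DNMT3A2 (adjusted p = 1.01e-20). TPD52L1, a tumour protein D52 family gene, rose by 1.16 between WT and ΔDNMT3A (adjusted p = 1.07e-19) and by 1.07 from there to DNMT3A1 (adjusted p = 8.23e-16), and in DNMT3A2 it was -0.33 against ΔDNMT3A (adjusted p = 2.35e-10), again the signs of PKIB. HDDC2, an HD domain gene, rose by 0.47 between WT and ΔDNMT3A (adjusted p = 5.84e-11) and was -0.12 against ΔDNMT3A in both DNMT3A1 (adjusted p = 0.0128) and DNMT3A2 (adjusted p = 0.00147). NCOA7, a nuclear receptor coactivator gene, rose by 0.65 between WT and ΔDNMT3A (adjusted p = 1.27e-13) and gave 0.02 in DNMT3A1 (adjusted p = 0.699) and -0.11 in DNMT3A2 (adjusted p = 0.00699). Around PRKACB the median of 50 genes was 0.18 between ΔDNMT3A and WT, -0.03 between DNMT3A1 and ΔDNMT3A and 0.08 between DNMT3A2 and ΔDNMT3A. Single genes near PRKACB changed by more than these medians. RPF1, the next tested gene after it, gave 0.35, -0.27 and 0.25 in the same order. SSX2IP, at 565.6 kilobases, gave 1.36, -1.19 and -1.14, and MCOLN3, at 940.0 kilobases, gave 1.04, 1.85 and -2.35. Around PRKAR2A, whose own change between ΔDNMT3A and WT was -0.12, the surrounding median was -0.33, with 35 of 50 genes lower and 1 higher. Against WT, the PRKAR2A surroundings had medians of -0.42 in DNMT3A1 (39 lower, 2 higher) and -0.38 in DNMT3A2 (39 lower, 1 higher). The median around PKIG was -0.18 between ΔDNMT3A and WT, where PKIG was at -0.04. Against WT it was -0.17 in DNMT3A1 and -0.34 in DNMT3A2, where PKIG gave -0.43 and -0.36. Against ΔDNMT3A it was -0.10 and -0.17, where PKIG gave -0.40 and -0.32.

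**Figure D4:**
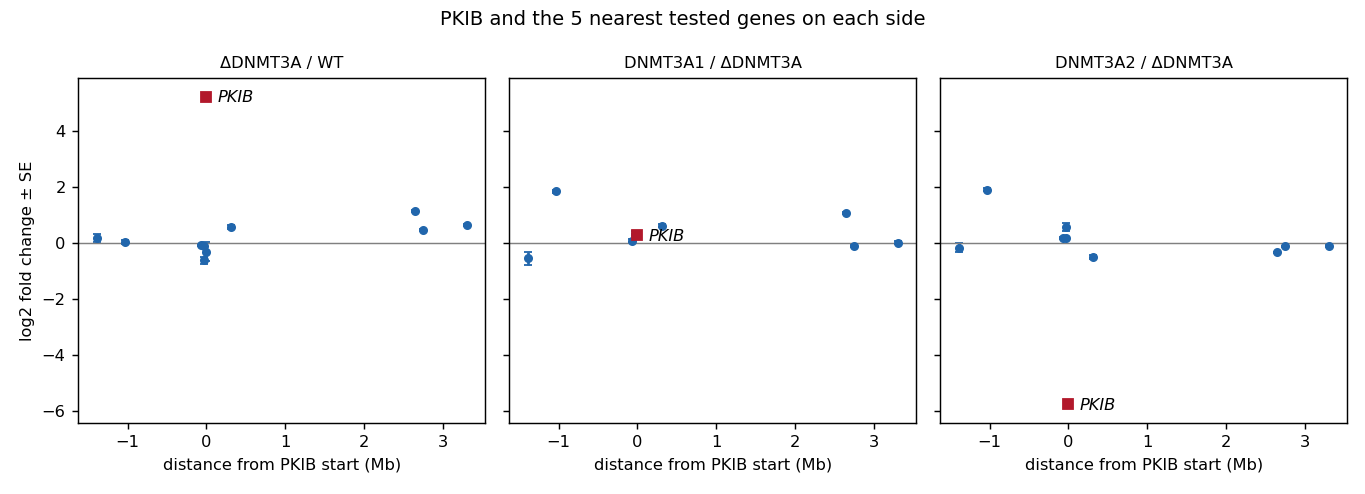
Log2 fold change with SE (y axis) of PKIB (red square, no test) and of the 5 nearest genes on each side (blue), against the distance of their start from that of PKIB in megabases, in 3 comparisons of Caco-2 lines. A gene not tested in a comparison is missing from its panel. PKIB lies at 5.24, 0.28 and -5.77, and the blue points between -0.62 and 1.92.

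The genes whose log2 levels followed PKIB most closely over the 15 Caco-2 libraries, among 17764 genes, were FOSL2, SCD5, QPCT, AGBL5 and SLC35F6, with Pearson correlations of 0.996, 0.995, 0.994, 0.992 and 0.992. The 15 points are replicates of only 4 lines, so a correlation here mostly compares 4 levels. FOSL2, an AP-1 transcription factor, averaged 90.2 ± 1.81 CPM for WT, 214.7 ± 6.20 for ΔDNMT3A, 221.2 ± 5.39 for DNMT3A1 and 90.4 ± 1.34 for DNMT3A2. SCD5, a stearoyl-CoA desaturase, averaged 1.61 ± 0.183, 9.56 ± 0.691, 9.60 ± 0.864 and 1.46 ± 0.211 CPM in the same order. QPCT, a glutaminyl cyclase, averaged 3.18 ± 0.410, 17.2 ± 0.485, 22.5 ± 0.419 and 2.99 ± 0.408 CPM. Of the 5, FOSL2, QPCT, AGBL5 and SLC35F6 lie on chromosome 2 and SCD5 on chromosome 4. DNMT3A, the targeted gene, also lies on chromosome 2, and whether position had a part in these correlations was not tested. The correlation of PKIB with PRKACB was -0.303.

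Upstream and downstream of PKA, 93 genes in 7 lists were read in the same fits. In the list of cAMP synthesis, which holds the stimulatory G proteins and the adenylyl cyclases, 7 of 9 tested genes were lower in ΔDNMT3A than in WT and 1 higher, beside 31.0% lower and 31.2% higher of all genes, with a median log2 change of -0.32 beside -0.0049 for all genes tested. GNAS, the Gα subunit that activates adenylyl cyclases, went from 858.7 ± 17.9 to 558.6 ± 10.9 CPM (-0.63, adjusted p = 2.24e-16). ADCY10, the soluble adenylyl cyclase, was the gene that rose (1.75 ± 0.244 to 3.31 ± 0.215 CPM, log2 0.91, adjusted p = 7.01e-07). In DNMT3A1 and DNMT3A2 GNAS averaged 528.9 ± 14.7 and 626.7 ± 7.47 CPM, both below WT. Over all 7 lists 14 of 62 tested genes were higher and 25 lower in ΔDNMT3A, where 62.2% of all genes passed, and their median absolute change was 0.29 beside 0.24 for all genes.

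Among Gs-coupled receptors, 3 of 5 tested genes fell in ΔDNMT3A (31.0% of all genes), including VIPR1, the receptor of vasoactive intestinal peptide (3.53 ± 0.794 to 1.87 ± 0.361 CPM, -0.94, adjusted p = 7.8e-06). ADRB1, the β1 adrenergic receptor, averaged 0.712 ± 0.123 CPM in ΔDNMT3A, 5.08 ± 0.572 in DNMT3A1 and 2.18 ± 0.285 in DNMT3A2, and so was higher in both isoform lines (2.84, adjusted p = 7.13e-12, and 1.62, adjusted p = 3.15e-08). Of the anchoring proteins, 3 rose and 3 fell in ΔDNMT3A among 13 tested, beside 31.2% higher and 31.0% lower of all genes. AKAP9 was lowest (159.9 ± 6.25 to 111.1 ± 5.10 CPM, -0.54, adjusted p = 1.42e-12). AKAP5 fell from 69.3 ± 1.87 CPM in ΔDNMT3A to 39.7 ± 1.09 in DNMT3A2 (-0.81, adjusted p = 8.1e-16).

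The phosphodiesterases, which break down cAMP, included the pathway gene that separated the isoform lines with the smallest adjusted p. PDE4D averaged 99.4 ± 4.96 CPM in WT and 72.6 ± 1.71 in ΔDNMT3A, against 61.4 ± 3.71 in DNMT3A1 and 256.8 ± 2.87 in DNMT3A2, and the log2 fold change of DNMT3A1 over DNMT3A2 was -2.07 (adjusted p = 2.24e-25). PDE10A fell in both isoform lines, from 26.8 ± 1.65 CPM in ΔDNMT3A to 9.43 ± 0.769 in DNMT3A1 (-1.50, adjusted p = 1.99e-13) and to 13.5 ± 0.680 in DNMT3A2 (-0.995, adjusted p = 3.95e-13). In this list, 3 of 11 tested genes rose and 5 fell in ΔDNMT3A against WT, beside 31.2% higher and 31.0% lower of all genes. In DNMT3A1 against DNMT3A2, 2 were higher and 6 lower, beside 34.5% and 33.9% of all genes. Among the other catalytic subunits and cAMP sensors, 1 of 4 tested genes rose and 1 fell in ΔDNMT3A, beside the same 31.2% and 31.0%. BVES, which encodes a cAMP-binding membrane protein, averaged 5.95 ± 0.786 CPM in DNMT3A1 and 0.641 ± 0.127 in DNMT3A2 (3.20, adjusted p = 5.65e-15).

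Genes that CREB is known to switch on went both ways. In ΔDNMT3A against WT 4 of 10 tested targets rose and 2 fell, beside 31.2% higher and 31.0% lower of all genes. DUSP1, a MAP kinase phosphatase, was highest (18.2 ± 0.466 to 31.2 ± 3.00 CPM, 0.77, adjusted p = 3.52e-11) and JUNB lowest (6.75 ± 0.386 to 4.90 ± 0.437 CPM, -0.48, adjusted p = 2.73e-05). In DNMT3A1 against ΔDNMT3A 3 of 11 rose, FOS most (8.07 ± 0.897 to 19.0 ± 4.02 CPM, 1.24, adjusted p = 5.73e-09), and 1, DUSP1, fell. In DNMT3A2 against ΔDNMT3A 1 of 10 rose, AREG, the growth factor amphiregulin (182.3 ± 3.81 to 329.7 ± 5.93 CPM, 0.85, adjusted p = 3.03e-19), and 2 fell. Of the CREB factors and coactivators, 2 of 10 rose and 4 fell in ΔDNMT3A against WT, and 6 of 10 rose and 2 fell in DNMT3A1 against ΔDNMT3A, with the acetyltransferase EP300 highest (46.1 ± 5.06 to 64.5 ± 5.23 CPM, 0.48, adjusted p = 3.62e-06). Over all lists, 24 rose and 20 fell in DNMT3A1 against ΔDNMT3A (62 tested, beside 30.4% higher and 30.3% lower of all genes), 20 rose and 19 fell in DNMT3A2 against ΔDNMT3A (60 tested, beside 33.8% and 34.1%), and 24 were higher and 22 lower in DNMT3A1 than in DNMT3A2 (63 tested, beside 34.5% and 33.9%). These counts, and those of the single lists, have to be read against such shares. Every adjusted p in these lists came from edgeR's quasi-likelihood test, with the Benjamini-Hochberg procedure run over the whole table.

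In mouse colonic epithelium, loss of Dnmt3a left no member past the threshold. All 9 passed the filter on low counts and 0 passed an adjusted p under 0.05 by edgeR or by DESeq2, where 0.691% of all 14626 genes tested by edgeR passed (0.602% higher and 0.0889% lower). By edgeR, 1 member, Prkaca, had an unadjusted p under 0.05, beside 2058 of all 14626 genes. Pkib had 1.43, 0.16, 1.23 and 1.498 CPM in fl/fl mice, from 31, 3, 28 and 37 counts, and 1.41, 1.23, 0.62 and 1.30 CPM in ΔIEC mice, from 35, 25, 10 and 29 counts. The groups overlapped, and with these few counts the log2 fold change of Pkib was 0.08 with an SE of 0.468 (adjusted p = 0.959), or -0.25 without fl/fl replicate 2. Prkacb had 38.1, 72.1, 49.4 and 39.7 CPM in fl/fl mice and 59.3, 55.0, 47.4 and 65.0 CPM in ΔIEC mice (log2 fold change 0.19, SE 0.190, adjusted p = 0.695). With 1 library left out the Prkacb value ran from 0.080 without fl/fl replicate 1 to 0.42 without fl/fl replicate 2, and it passed in none of these fits. The fl/fl library with the lowest Pkib, replicate 2, had the highest Prkacb of that group.

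Prkaca had 55.0, 50.4, 47.2 and 46.2 CPM in fl/fl mice and 55.6, 56.0, 58.2 and 63.1 CPM in ΔIEC mice (0.23, SE 0.0873, adjusted p = 0.283). Prkar1a had 65.8, 65.7, 60.1 and 66.0 CPM in fl/fl mice and 68.7, 72.7, 70.8 and 69.0 CPM in ΔIEC mice (0.13, SE 0.0738, adjusted p = 0.466). For Prkaca and Prkar1a each ΔIEC library was above each fl/fl library, 2 of 9 members where 10.3% of all genes did not overlap. Leukocyte markers summed to 4.31 to 5.52 CPM in fl/fl and 5.94 to 7.73 CPM in ΔIEC libraries, with Ptprc at 1.85 and 4.08 CPM on average, while stromal and endothelial markers summed to 30.1 to 35.5 and 22.2 to 29.9 CPM and neural and smooth muscle markers to 4.37 to 6.39 and 2.47 to 4.19 CPM. None of these 3 sums overlapped between the groups. The study selected EpCAM positive cells, a step meant to leave such cells out, and the part of these cells in the Prkaca and Prkar1a values was not tested. Prkar2a, Pkig, Pkia, Prkar2b and Prkar1b averaged 142.1, 21.3, 2.85, 2.22 and 0.542 CPM in fl/fl mice and 139.9, 21.6, 2.91, 2.35 and 0.452 CPM in ΔIEC mice, with overlapping ranges and log2 fold changes between -0.28 and 0.10.

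**Figure D5:**
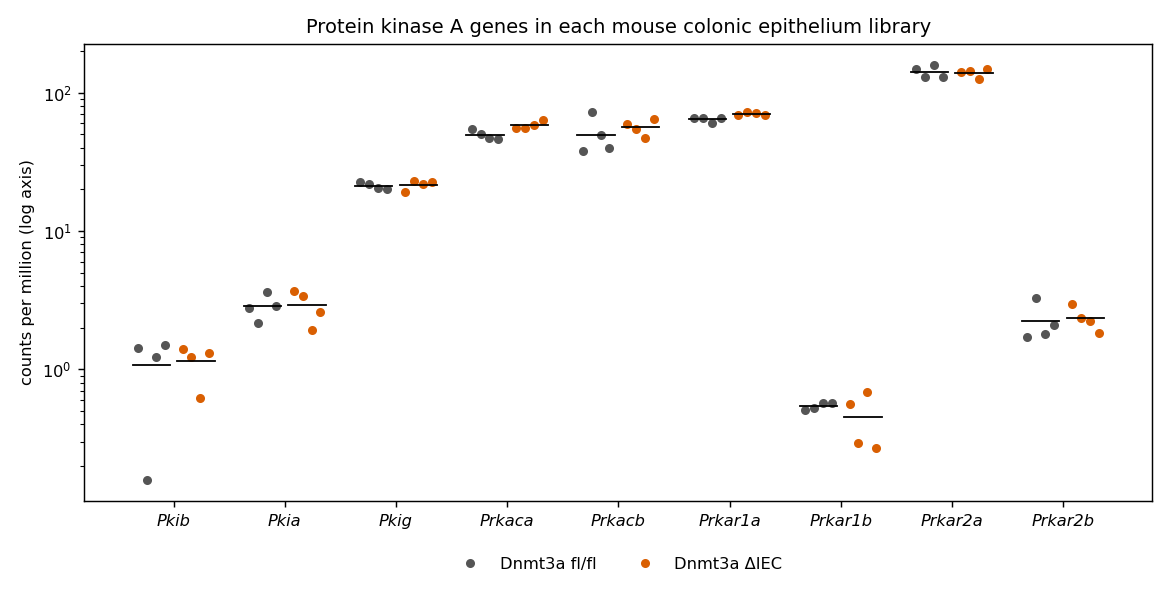
CPM (log axis) of the 9 members in each of the 8 mouse libraries, fl/fl in grey and ΔIEC in orange. Points are libraries and black bars are means. Prkaca and Prkar1a are the members whose groups do not overlap, and fl/fl replicate 2 stands low for Pkib at 0.16 CPM.

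The make-up of the PKA transcripts in mouse epithelium was unlike that of Caco-2 cells, a description across species, gene models and counting settings. Prkaca and Prkacb together were more abundant per length, with a sum of 28.8 ± 3.14 CPM per kilobase in fl/fl and 33.5 ± 2.33 in ΔIEC mice. The ratio of the regulatory sum to this catalytic sum, again without Prkx, was 1.498 ± 0.171 and 1.31 ± 0.0737. Prkacb made up 30.3% ± 6.51 and 30.0% ± 2.49 of the catalytic sum. Type I genes made up 35.2% ± 3.02 and 37.5% ± 1.91 of the regulatory sum, with Prkar1b at 0.949% ± 0.0864 and 0.725% ± 0.325 of type I. The inhibitor sum, mostly Pkig, was 0.217 ± 0.0217 and 0.188 ± 0.0153 of the catalytic sum. Of the 73 pathway genes tested in mice, 0 passed an adjusted p under 0.05 by edgeR, and 1, Nr4a2, passed by DESeq2 (-0.56, adjusted p = 0.0383). By edgeR, 9 of the 73 had an unadjusted p under 0.05, beside 2058 of all 14626 genes tested.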

How the data were processed

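RNA-seq libraries of 15 Caco-2 samples and 8 mouse colonic epithelium samples were used. For 1 of the 16 listed Caco-2 samples, DNMT3A1 replicate 3, counts were not analysed here. The authors deposited raw counts, whole numbers per gene, made from reads trimmed with Trim Galore 0.4.4 and counted with featureCounts 1.5.2 per the labels, after alignment with STAR 2.5.2b. The mouse headers name featureCounts 1.6.4. Counting was reverse stranded for human and unstranded for mouse, per the file headers, so in mice reads of a gene and of an antisense partner cannot be told apart. Symbols of a reference table matched 56948 of 58051 human IDs.

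Groups were taken from the labels. Counts were filtered with filterByExpr, scaled by TMM and tested with the edgeR 4.0.16 quasi-likelihood test in R 4.3.3 on the libraries of the groups compared, with the p-values adjusted by Benjamini-Hochberg across the whole table and a threshold of 0.05. The SE is the log2 fold change divided by the square root of its F value. Levels are CPM on TMM library sizes over all libraries of a species, per kilobase where divided by the length in the files. Genes were named by rule: all 9 members, the targeted gene, in each pathway list and comparison the highest and lowest changed gene that passed with a mean of at least 1 CPM, the 5 nearest tested genes on each side of PKIB and the 5 genes most correlated with it (prior count 1). Nr4a2, Areg and Pde1c in mice, and RPF1, SSX2IP and MCOLN3 near PRKACB, were named after their values were seen, and overlapping gene models for their position. Members and lists were chosen with earlier results of these data known. Within-lane differences used a pseudocount of 0.1 CPM and the lane in the file headers (replicates 1 and 2 on lane 5, 3 and 4 on lane 6). The fits were tested on simulated counts. Replicates differed by more than sampling noise (chi-square per degree of freedom 1.83 to 5.10 in human and 9.98 to 80.9 in mouse pairs). With these depths a gene at 0 counts could lie at up to 3 counts. Alternatives were DESeq2 1.42.0, its size factors, no filter, all 4 lines in 1 fit, a replicate block, the lane as a term, and leaving out each library. Prkacg, Palm2akap2, Adrb1 and Gpbar1 were not analysed here in mice. Python 3.11.15 was used for tables and figures.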

Additional observations from a re-analysis of the deposited data

Results flagged for a closer look

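In ΔDNMT3A replicate 4, PRKAR1B had 61.5 CPM while the other 3 libraries of the line had 65.8 to 66.5 CPM, a gap large for a group of 4. Prkar1a in fl/fl replicate 3 had 60.1 CPM beside 65.7 to 66.0 CPM in the others. These were 2 of 42 groups of 4 looked at, and chance gives about 1 in 20. Without ΔDNMT3A replicate 4, the PRKAR1B change against WT was 0.14 (adjusted p = 0.00219).

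The change from ΔDNMT3A differed between the isoform lines for 4 members by the edgeR quasi-likelihood test of DNMT3A1 against DNMT3A2. For PRKACB the difference was -3.004 (changes of -1.17 and 1.84, adjusted p = 1.17e-15) and all DNMT3A1 libraries were below all DNMT3A2 libraries. For PRKAR1B it was -0.42 (-0.81 and -0.40, adjusted p = 4.25e-09), for PRKAR2A -0.19 (-0.19 and -0.0040, adjusted p = 1.09e-05) and for PRKAR1A -0.14 (-0.0023 and 0.14, adjusted p = 0.000144). Over all genes, 68.5% passed in that comparison.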

How the results depend on the processing

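Counts of members that passed stayed within 1.5 times the value given under each alternative run, and with 1 library left out they were 3 to 4 (ΔDNMT3A against WT), 4 (either isoform line against ΔDNMT3A), 3 to 4 (DNMT3A1 against WT), 4 to 6 (DNMT3A2 against WT) and 4 to 5 (between isoform lines). PRKACB kept its direction in all of them and passed in each of its 5 passing comparisons. PRKAR1A, at -0.07 in DNMT3A1 against WT, did not pass without the filter (-0.08, adjusted p = 0.0847), by DESeq2 (-0.07, adjusted p = 0.0626) or with lane as a term (-0.07, adjusted p = 0.0593), and in DNMT3A2 against WT it did not pass without the filter (0.05, adjusted p = 0.228). Both were also lost when single libraries were left out (DNMT3A1 replicate 2, WT replicate 1, 3 or 4 in the first, WT replicate 1 or 4 or DNMT3A2 replicate 4 in the second).

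Signs turned only where the value was near 0 and had not passed. In DNMT3A1 against ΔDNMT3A, PRKACA was -0.11 to 0.012 and PRKAR1A -0.024 to 0.025 with 1 library left out, and PRKAR1A was 0.00011 with lane as a term. PRKAR2A in DNMT3A2 against ΔDNMT3A was 0.0013 with all 4 lines in 1 fit and -0.018 to 0.011 with 1 library left out. In mice with 1 library left out, Pkib was -0.25 to 0.27, Pkia -0.11 to 0.18, Pkig -0.014 to 0.070, Prkar2a -0.068 to 0.038 and Prkar2b -0.0445 to 0.33. Mouse pathway genes that passed were 0, and 1 by DESeq2 (Nr4a2), 1 without fl/fl replicate 2 (Pde1c) and 1 without ΔIEC replicate 4 (Areg), so 0 to 1 with 1 library left out. Why these values moved was not tested.

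Replicate numbers did not pair the Caco-2 libraries: correlations of same-numbered deviations were -0.0388 to 0.0536 over 21 pairs. With the number as a block, 4, 4, 4, 3, 6 and 5 members passed in the order of comparisons above, PRKACA and PRKAR1A in DNMT3A1 against ΔDNMT3A were 0.012 and 0.0070, PKIG between the isoform lines passed (-0.16, adjusted p = 0.0237), and PRKAR1A in DNMT3A1 against WT did not (-0.06, adjusted p = 0.113). The p-values are from edgeR unless DESeq2 is named. Pkib, Prkar1b and PRKAR2B, with at most 37 counts per library, are limited by depth, as is PKIA with at most 1. The same holds for PKIB in WT (13 to 29 counts) and DNMT3A2 (10 to 18). It also holds for PRKACB in WT (26 to 33) and DNMT3A1 (19 to 50).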
